A study of Drosophila melanogaster with 23 samples.

Results

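Open chromatin was compared between nuclei of 2 even-skipped stripes of the Drosophila melanogaster blastoderm, the anterior stripe 2 (D2) and the posterior stripe 5 (D6). All 4 lists of accessible regions made from these nuclei were used, 2 for each stripe, of 22 lists analysed in the series. Peaks of the 4 lists on X, 2L, 2R, 3L, 3R and 4 were merged wherever they overlapped by at least 1 bp, which gave 21346 regions, against 25311 when all 22 lists were merged. A region counted as found in a list that had a peak in it. It was called separated when both lists of one stripe held it and neither list of the other did. This choice used no fold value.

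The lists came from ATAC-seq, an assay that uses a transposase to place sequencing adapters where DNA is open. Embryos of a wild-type background at stage 5, 2 h 50 min to 3 h 10 min old and pooled from population cages, carried a FLAG-tagged nuclear envelope protein, and their tagged nuclei were pulled down with an anti-FLAG antibody. The D2 strains, lines A and B, carried the construct eve_stripe2_DSCP_UNC84-3xFLAG, and the D6 strains, also lines A and B, carried eve_stripe5_DSCP_UNC84-3xFLAG. Each list therefore came from its own transgenic strain, and strain and replicate cannot be told apart. The nuclei collected are those in which the enhancer was active, so each sample is a band as the transgene drew it, and the purity of the pull-down is not given in the sources used here. The other 10 tagged lists, 2 each for D1 (anterior hunchback enhancer), D3 (even-skipped stripe 1), D4 (Dichaete), D5 (Kruppel) and D7 (posterior giant enhancer), and the 8 lists of whole embryos with the D1, D4, D5 and D7 constructs served to describe the regions that differed. Both D3 lists came from the same strain, D3 line A, while the other tagged domains had lines A and B. No annotation of build dm3, the build of the lists, was used, so regions are given by position, no region was assigned to a gene, and the identity of the nuclei was not checked against marker loci.

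Even-skipped is a pair-rule gene. It encodes a homeodomain repressor and is transcribed in stripes around the blastoderm, several of which are each drawn by an enhancer of their own. The stripe 2 enhancer is switched on by the anterior activators Bicoid and Hunchback and is bounded by the repressors Giant, on its anterior side, and Kruppel, on its posterior side. The stripe 5 enhancer, on the other side of the gene, is bounded in the reverse order, by Kruppel anteriorly and by Giant posteriorly. Nuclei of stripe 2 lie near the border of the future head and thorax, and those of stripe 5 in the future abdomen. Accessible enhancers are open in the nuclei where activators and pioneer factors have displaced nucleosomes, so neighbouring bands of the same embryo can share most open regions and still differ at enhancers of position-dependent genes.

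The 4 lists differed in length. On the 6 chromosome arms, D2 replicate 1 held 20466 peaks and D2 replicate 2 held 17863, while D6 replicate 1 held 16830 and D6 replicate 2 held 17898. They covered 12.9, 10.9, 10.3 and 11.3 Mb respectively, with median peak widths of 427 to 443 bp. The median fold enrichment over genomic DNA at the summit, as the authors gave it, was 2.67 and 3.02 in the D2 lists and 2.56 and 2.76 in the D6 lists. D2 replicate 1 was thus the longest list and D6 replicate 1 the shortest. Both are written in the same naming style, a Vn_m form, while replicate 2 of each stripe has a REP2 form. Whether that style marks a batch is not stated, but each stripe has 1 list of each style, so a difference seen in both pairs was seen within both styles. Read depth was unknown. Because presence in a longer list is more likely, the counts of separated regions and their shares in other lists are given also for lists of equal length, the widest 16830 peaks of each. Other counts are of the full lists unless stated.

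Most accessible DNA was shared between the stripes. Of the 21346 regions, 13054 (61.2%) were found in all 4 lists, and these had a median width of 653 bp. A further 2219 (10.4%) were found in 3 lists, 2450 (11.5%) in 2 and 3623 (17.0%) in a single list, where the median width was 236 bp. The base-pair overlap of the D2 pair (Jaccard index, shared over combined length) was 78.4%, and that of the D6 pair was 75.9%. Across stripes the index was 74.6% ± 1.51 (SD, n = 4 pairs). The values were 73.2% for D2 replicate 1 with D6 replicate 1, 74.4% for D2 replicate 1 with D6 replicate 2, 76.7% for D2 replicate 2 with D6 replicate 1 and 73.9% for D2 replicate 2 with D6 replicate 2. The index of D2 replicate 2 with D6 replicate 1 was above that of the D6 pair, so the whole-list overlaps did not set the stripes apart from replicates. With lists of equal length the D2 pair reached 79.7%, the D6 pair 76.2%, and the pairs across stripes 73.9% to 76.8%.

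Separated regions were a small part of the whole and more of them were on the D2 side. In the full lists, 990 regions (4.64% of all) were found in both D2 lists and neither D6 list, and 208 (0.974%) in both D6 lists and neither D2 list. At equal lengths, where 19253 regions remained, the counts were 624 (3.24%) and 482 (2.5%). The difference between the stripes was thus much smaller at equal lengths. With 2 lists against 2, a single region cannot reach a two-sided exact permutation p below 0.333, so separation is a description and no region is called by a test. Presence in fewer lists is an easier condition, and the D2-found count was 1498 without D2 replicate 1, 3168 without D2 replicate 2, 1713 without D6 replicate 1 and 1918 without D6 replicate 2. The D6-found count was 824, 248, 1105 and 477 in the same order. The other ways in which 2 lists alone can hold a region give the scale. Only D2 replicate 1 and D6 replicate 2 held 820 regions, the lists in the Vn_m style alone held 320, those in the REP2 style alone held 62, and D2 replicate 2 with D6 replicate 1 held 50. The 208 D6-found regions were thus fewer than those of the first and the second of these pairings, both of which include the longest list, and more than those of the other pairings. The 990 D2-found regions were more than those of any of them.

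**Figure D1:**
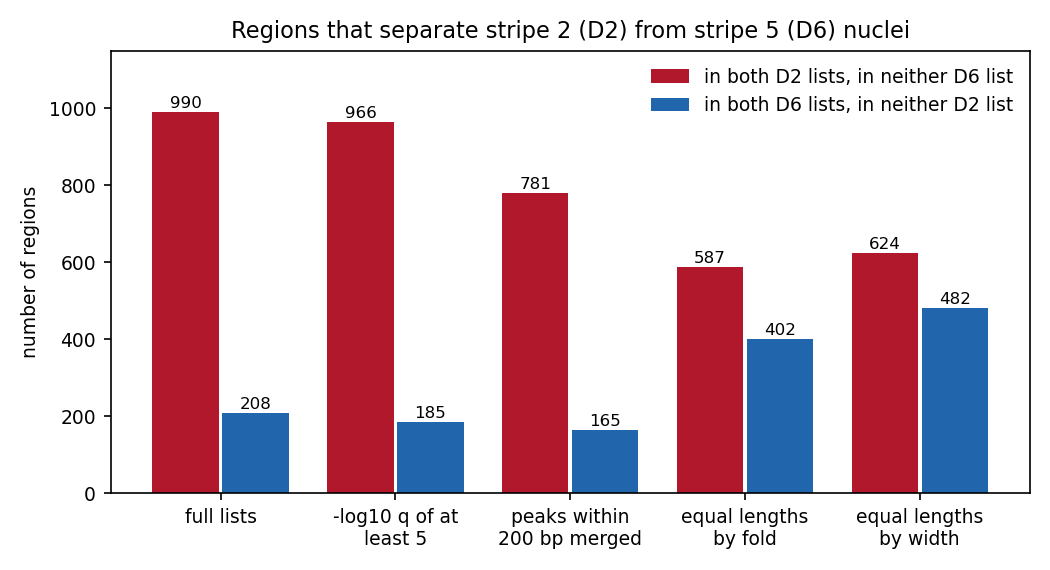
Number of regions found in both lists of one stripe and neither list of the other (vertical axis), by setting (horizontal axis). The settings are the full lists, a -log10 q of at least 5, peaks within 200 bp merged, and lists cut to 16830 peaks by fold or by width. Bars are counts with no error. The D2-found bar falls from 990 to 624 and the D6-found bar rises from 208 to 482 at equal lengths by width.

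The direction differed between the naming styles. In the Vn_m pair 4808 regions were found in D2 alone and 545 in D6 alone, and in the REP2 pair, where the lists differ by few peaks, 2121 were found in D2 alone and 2504 in D6 alone. At equal lengths the Vn_m pair gave 2336 and 1490, and the REP2 pair 2004 and 2316. The larger D2 count was therefore seen in 1 style and the larger D6 count in the other, with full lists and at equal lengths, and an excess of either stripe in overall accessibility was not shown by these lists.

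Separated regions were mostly weak peaks in the lists that held them. The median width was 316 bp for D2-found and 344 bp for D6-found regions, and the median fold enrichment was 1.94 and 2.097. Ranked by fold within the full list, from 0 for the weakest to 100 for the strongest peak, D2-found regions had a median percentile of 17.8 (quartiles 9.21 and 30.7) and D6-found regions of 25.8 (quartiles 16.3 and 39.6). Only 44 D2-found regions (4.44%) and 23 D6-found regions (11.1%) lay above the 50th percentile, and the highest were at 67.5 and 69.7. The weaker of the pair of -log10 q values was below 5 in 350 (35.4%) and 68 (32.7%), against a lowest deposited value of 2. A neighbouring peak of the other stripe was often close by: the median distance was 725 bp for D2-found and 759.5 bp for D6-found regions, and it was within 200 bp for 159 and 32 of them. Cutting the lists to equal length kept 558 of the 990 D2-found regions (56.4%) and 184 of the 208 D6-found regions (88.5%).

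**Figure D2:**
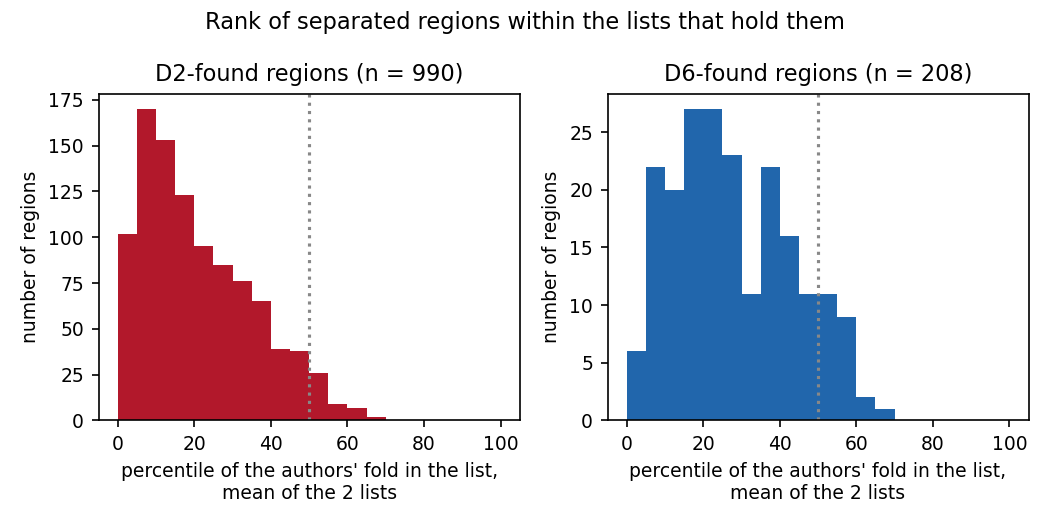
Number of separated regions (vertical axis) by their percentile of fold enrichment within the list (horizontal axis, mean over the pair of lists that hold the region), D2-found on one panel and D6-found on the other. Both distributions lie mainly below the 50th percentile, with medians of 17.8 and 25.8.

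The strongest D2-found regions, named by their percentile, had folds of 3.23 to 4.34 in replicate 1 and 3.24 to 4.02 in replicate 2. The first was 2L 10663627–10664058, with a fold of 4.24 in D2 replicate 1 and 4.02 in D2 replicate 2. It was held by every other tagged list and by all 8 whole-embryo lists, so of the 22 lists only the D6 lists lacked it. The same held for 3R 11858633–11858989 (fold 3.91 and 3.54) and 3L 3530419–3530679 (4.11 and 3.28), the latter 12588 bp from the nearest D6 peak. A different pattern was seen at 3L 10222089–10222571, with folds of 3.91 and 3.24, which both D1 and both D3 lists held while no D4, D5 or D7 list did. At 3R 12042273–12042746, with folds of 4.24 and 3.72, the D1, D3, D4 and D5 lists all had a peak and the D7 lists had none.

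The remaining D2-found regions of that rank were more mixed. 3R 24022230–24022636, with folds of 4.001 and 3.73, was held by no D1 or D3 list, by 1 list each of D4, D5 and D7 and by 3 whole-embryo lists, and the nearest D6 peak lay 49664 bp away. 3R 15664558–15665024 (4.34 and 3.32) was missing from both D5 lists alone among the other tagged lists, and 2L 11436082–11440336, a region of 4255 bp (3.48 and 3.62), was missing from both D5 lists and 1 D4 list. X 21102273–21102599 (3.23 and 4.01) was missing from both D3 lists and 1 D7 list. 2R 6389772–6390039 (3.61 and 3.36) was missing from 1 D3 and 1 D7 list. These 5 therefore showed no common position along the axis. All 10 strongest D2-found regions stayed separated at equal lengths.

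The strongest D6-found regions had a clearer position. Folds were 2.35 to 3.21 in D6 replicate 1 and 3.21 to 6.45 in D6 replicate 2. 3R 12588153–12588529 had a fold of 2.46 in D6 replicate 1 and 6.45 in D6 replicate 2, was held by both lists of D4, D5 and D7 and by all 8 whole-embryo lists, and was held by no D1 or D3 list. 2L 4312316–4312710 showed the same pattern with folds of 2.90 and 3.72. 2R 15750567–15751103 did so too, with folds of 2.35 and 4.91 and 3 whole-embryo lists. 2R 12718539–12719130 (2.64 and 3.72) was held by no D1 or D3 list and by 5 of the 6 lists of D4, D5 and D7.

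The other strong D6-found regions did not have this pattern. 2L 15957326–15957591, the first by rank, had folds of 3.21 and 5.27 and was held by all 10 other tagged lists, so it was missing from the D2 lists alone. 3R 5712223–5712664 (3.04 and 4.22) and X 9479692–9480109 (2.75 and 3.89) were each missing from 1 of the 4 D1 and D3 lists, and X 6427535–6427805 (3.02 and 3.21) from 2 of them. 3R 12609060–12609472 (2.42 and 4.17) was held by 1 D1 list, no D3 list and all lists of D4, D5 and D7. X 20553438–20554040 (2.64 and 3.68) was held by no D1, D3 or D7 list, by 1 D4 list, 1 D5 list and a single whole-embryo list. As on the D2 side, all 10 remained separated at equal lengths.

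Positions along the axis were then described with the 10 tagged lists that had not been used to choose the regions. The D6-found regions were found less often in the anterior lists than in the central and posterior ones. Of the 208 regions, the D1 lists held 52.4% and 57.2%, the D3 lists 48.6% and 31.7%, the D4 lists 92.3% and 89.9%, the D5 lists 73.6% and 82.2% and the D7 lists 79.8% and 76.9%. The groups did not overlap, since the highest D1 or D3 list was at 57.2% and the lowest of the others at 73.6%. The mean share was 47.5% ± 11.1 (SD, n = 4) in D1 and D3 and 82.5% ± 7.34 (SD, n = 6) in D4, D5 and D7. The difference of -35.0 percentage points had an exact two-sided permutation p of 0.00476, the smallest that 210 splits of the 10 lists allow, and 0.00952 after adjustment over both directions. With the D3 lists, which share a strain, averaged first, the difference over 9 strains was -32.5 points (exact permutation p = 0.0119, the smallest of 84 splits). The 2 lists of a domain are not independent in position, and by domain the exact permutation p was 0.1, the smallest that 10 splits of 5 domains allow. Within naming styles the difference was -29.5 points in the first style, an ATAC_ form, and -30.1 in the Vn_m style. The exact permutation p was 0.025, the smallest of 40 stratified splits. D3 replicate 2, in the REP2 style, had no counterpart and was left out of it. In the ATAC_ style D1 replicate 1 alone stood for D1 and D3. At equal lengths the shares were 45.0% ± 10.3 (SD, n = 4) and 69.3% ± 11.3 (SD, n = 6), a difference of -24.3 points (exact permutation p = 0.0143, adjusted 0.0286). Regions chosen without D2 replicate 1 gave -16.5 points and those chosen without D6 replicate 2 gave -19.6 (exact permutation p = 0.00952 for both). The call was lost among peaks with a single summit, where the difference was -15.6 points (exact permutation p = 0.210). That filter removed no peak from the ATAC_ lists and 28.8% to 32.7% of the peaks of the other lists compared. It also raised the D6-found count from 208 to 597.

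For D2-found regions no difference passed the test. The D1 lists held 87.5% and 53.2% of the 990 regions, the D3 lists 56.2% and 43.9%, the D4 lists 74.3% and 55.1%, the D5 lists 80.5% and 56.8% and the D7 lists 48.4% and 39.5%. Replicate 1 of D1, D4 and D5, in the ATAC_ style, was high, and the groups overlapped. Means were 60.2% ± 18.9 (SD, n = 4) in D1 and D3 and 59.1% ± 15.6 (SD, n = 6) in D4, D5 and D7, a difference of 1.11 points (exact permutation p = 0.9). At equal lengths it was 5.50 points by width (exact permutation p = 0.419) and 8.79 by fold (p = 0.148, same exact test). With naming style as strata, again without D3 replicate 2, it was 11.1 points (exact permutation p = 0.325). This was made of 19.7 in the ATAC_ style, where D1 replicate 1 alone stood for D1 and D3, and 4.26 in the Vn_m style. Over strains the difference was 4.49 (exact permutation p = 0.667). The whole-embryo lists held 57.9% to 85.4% of the D2-found regions and 67.3% to 81.7% of the D6-found regions.

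**Figure D3:**
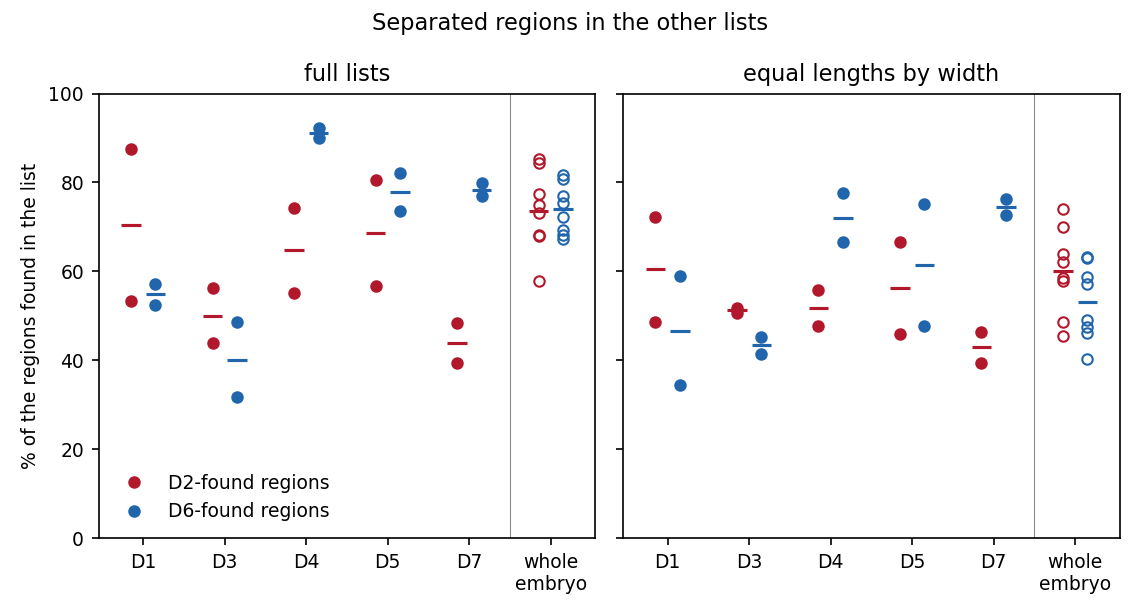
Percent of the separated regions (vertical axis) held by each tagged and whole-embryo list that was not used to choose them, 1 point per list. Groups of lists are on the horizontal axis, and short lines are group means. The panels show the full lists and lists of equal length by width, with D2-found and D6-found regions in different colours. For D6-found regions of the full lists the D1 and D3 points lie at 31.7% to 57.2% and the D4, D5 and D7 points at 73.6% to 92.3%. At equal lengths these ranges overlap, at 34.4% to 58.9% and 47.7% to 77.6%. For D2-found regions the groups overlap in both panels.

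A minority of the separated regions divided the D1 and D3 lists from the D7 lists without exception. Among the D6-found regions, 38 (18.3%) were found in both D7 lists and in no D1 or D3 list, against 177 of all 21346 regions. Of these 38, 29 were also in all D4 and D5 lists. Of the D6-found regions, 0 were found in all D1 and D3 lists and no D7 list. Some of the 38 lay close together on 3R. In the 100 kb bin starting at 3R 12500001 were 8 of them, and in that starting at 12600001 were 5. Those at 3R 5731308, 5763816 and 5787617 lay in the bin starting at 5700001. The profile thus shares regions with the dense bins described below. Among the D2-found regions, 93 (9.39%) were found in all D1 and D3 lists and in no D7 list, against 1.82% of all regions. Of the 93, 30 were in no D4 or D5 list either (3.03% of the D2-found regions, against 0.408% of all regions). In both D7 lists and no D1 or D3 list were 6 D2-found regions (0.606%). At equal lengths 79 of the 482 D6-found regions (16.4%) had the D7 profile, against 1.54% of all, and 63 of the 624 D2-found regions (10.1%) the D1 and D3 profile, against 1.46%. These shares carry no test. All 10 other tagged lists held 76 D2-found (7.68%) and 21 D6-found regions (10.1%), against 60.4% of all regions. The background of all regions includes the 61.2% that all 4 lists of D2 and D6 held. Separated regions are missing from 2 lists by choice. They can be expected to be missing from other lists more often, so part of each contrast with all regions is fixed by the choice. No other tagged list held 8 D2-found regions (0.808%, against 1.32% of all regions), and 2 of those 8 were in no whole-embryo list. No D6-found region was missing from all other tagged lists.

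D6-found regions lay together at a few places. In fixed bins of 100 kb, 146 of the 167 bins with a D6-found region held 1, and 3 bins held 8 each, 24 of the 208 regions (11.5%), while the next bin held 4. These bins were all on 3R, at 5700001–5800000, 12500001–12600000 and 12600001–12700000, and the last pair adjoin. They held 38, 66 and 55 merged regions in all, and 0 were D2-found. Of their regions 21.1%, 12.1% and 14.5% were D6-found, against 0.974% over all regions. The bins were chosen for their D6-found regions, so shares above the 0.974% follow from the choice. At equal lengths the counts were 8, 12 and 10. Without D6 replicate 1 the fullest bin held 30 in place of 8, and it held 13 when a peak had to cover 50% of a region.

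The bin at 3R 12500001–12600000 held D6-found regions from 12512762 to 12596027. D6 replicate 1 held 42 of its 66 regions and D6 replicate 2 all 66, while the D2 lists held 36 and 32. The other tagged lists divided in the same way, with 30 and 28 in D1, 30 and 18 in D3, 58 and 58 in D4, 57 and 60 in D5 and 54 and 50 in D7. Whole-embryo lists lay between, at 41 to 45. All 8 D6-found regions were in no D1 or D3 list, and in both D4 and both D7 lists, and 7 were in both D5 lists. Their folds ranged from 1.46 to 2.46 in D6 replicate 1 and from 1.66 to 6.45 in D6 replicate 2.

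In the adjoining bin, 3R 12600001–12700000, the D2 lists held 25 and 23 of 55 regions and the D6 lists 33 and 55. The D7 lists held the most of the lists not used to define the regions, 50 and 51, followed by D4 with 45 and 41 and D5 with 36 and 33. The D1 lists held 23 and 25 and the D3 lists 24 and 17. All 8 D6-found regions were in both D4 and both D7 lists and in no D3 list, and 4 were in both D5 lists. In the third bin, 3R 5700001–5800000, the D2 lists held 12 and 11 of 38 regions, the D6 lists 19 and 38, D4 33 and 33, D5 32 and 34, D7 32 and 23, D1 11 and 14 and D3 15 and 13. Its 8 D6-found regions were all in both D4 and both D5 lists, and 4 were in no D1 or D3 list. The regions were defined on the 4 lists of D2 and D6, and D6 replicate 2 held every one in these bins, so its count is not set against those of the lists that defined no region. The bins were chosen for regions that the D2 lists lack, so the low D2 counts are partly fixed by the choice. With the separated regions left out, the D2 lists held 36 and 32 in the bin at 12500001, and the D6 lists 34 and 58. In the bin at 12600001 the D2 lists held 25 and 23 and the D6 lists 25 and 47. In that at 5700001 the counts were 12 and 11 against 11 and 30. Outside the chosen regions D6 replicate 1 thus held about as many as the D2 lists, and only D6 replicate 2 held more.

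D2-found regions were spread over 532 bins, and the fullest held 12. That bin, 2R 3200001–3300000, had 64 regions, 18.8% of them D2-found, against 4.64% over all regions. A share above the 4.64% follows from choosing the fullest bin. The D2-found regions there started at 3202296, 3206626, 3210056, 3224963, 3227986 and 3228447, and further along at 3232134, 3234829, 3250806, 3256388, 3288352 and 3298275. They were weak, with folds of 1.33 to 2.42 in replicate 1 and 1.55 to 2.79 in replicate 2, and 6 of the 12 stayed separated at equal lengths. The fullest D2-found bin held 19 without D2 replicate 1 and 20 without D6 replicate 1. In the other tagged lists 8 were missing from both D3 lists and 9 from both D7 lists. The D2 lists held 62 and 57 of the regions of this bin, the D6 lists 42 and 37, and the whole-embryo lists 41 to 61. The bin was chosen for its D2-found regions, and without them the D2 lists held 50 and 45, against the same 42 and 37.

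The second bin, 3L 5600001–5700000, had 10 D2-found regions, 22.7% of its 44, starting at 5600700, 5617680, 5628629, 5632579 and 5633362 and at 5634864, 5635890, 5636828, 5638762 and 5640654, so 7 of the 10 lay within 10 kb. All 10 were in both D3 lists and 9 in both D1 lists, 6 were in both D5 lists, 7 were in no D4 list and 6 in no D7 list, and each was in 6 to 8 whole-embryo lists. Their folds were 1.62 to 2.26 in D2 replicate 1 and 1.73 to 2.63 in D2 replicate 2. Of all regions in the bin the D2 lists held 41 and 33, the D1 lists 41 and 40 and the D3 lists 42 and 37, while the D6 lists held 28 and 22, the D7 lists 34 and 30 and the D4 lists 31 and 27. The D5 lists, with 39 and 33, and the whole-embryo lists, with 37 to 43, held about as many as the D2 lists. This bin too was chosen for its D2-found regions. Without them the D2 lists held 31 and 23, near the 28 and 22 of the D6 lists. At equal lengths 8 D2-found regions remained, and 4 regions there became D6-found.

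The third bin, 3R 1000001–1100000, had 9 D2-found regions among 56 (16.1%), 7 of which remained at equal lengths. They started at 1008112, 1009441, 1012998, 1015957, 1018814, 1019371, 1027304, 1028373 and 1062687, with folds of 1.38 to 2.41 and 1.65 to 2.46. Here the central lists held the regions, 8 of 9 being in both D4 and 8 in both D5 lists. Across the bin the D2 lists held 49 and 47 regions and the D6 lists 33 and 31, and the other tagged lists 35 to 54. The bin was chosen for regions that the D6 lists lack, so their low count there is partly fixed by the choice. Without the separated regions the D2 lists held 40 and 38, against 33 and 31 in the D6 lists.

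**Figure D4:**
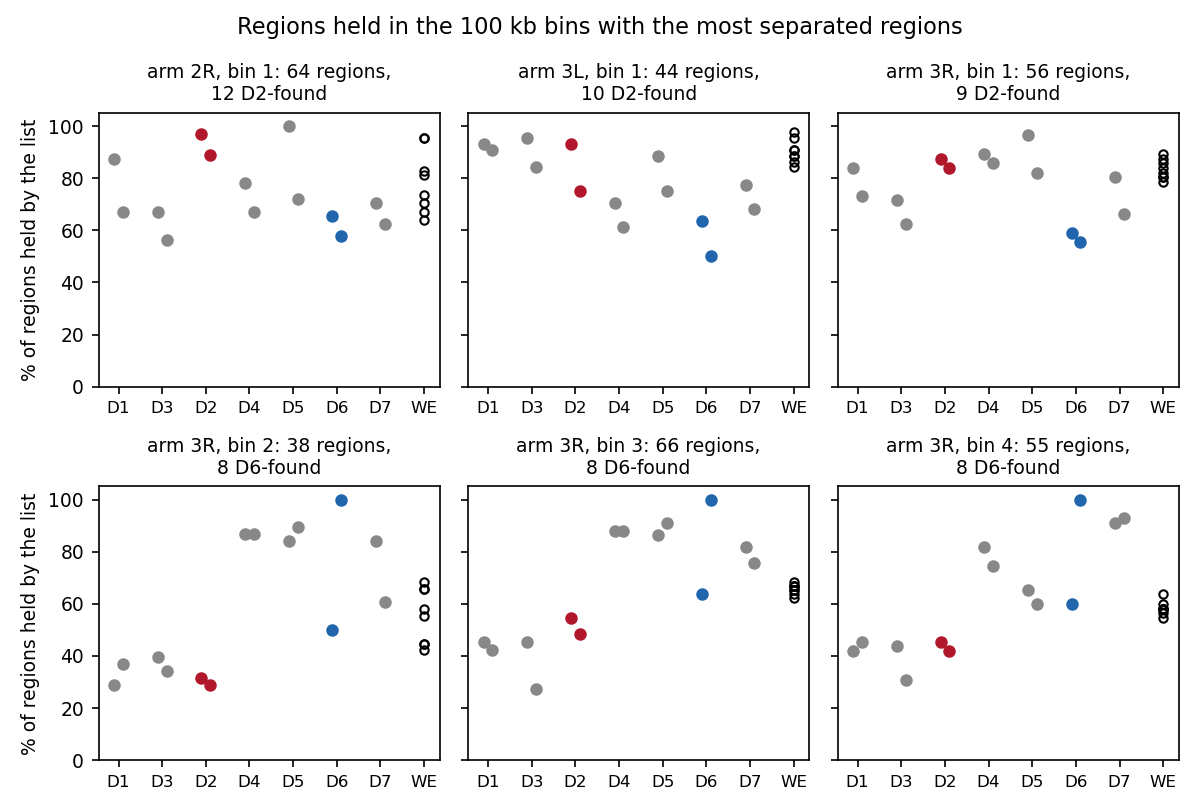
Percent of the merged regions of a bin held by each list (vertical axis), by group of lists (horizontal axis), 1 point per list. Each of the 6 bins of 100 kb with the most separated regions has its own panel. In the 3 D6-found bins of 3R the D2, D1 and D3 lists hold fewer regions than the D4, D5 and D7 lists. Of the 44 regions of the 3L bin, the D1 and D3 lists hold 37 to 42, the D5 lists 39 and 33 and the D6 lists 28 and 22.

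Strength was compared in the 13054 regions found in all 4 lists, by the percentile of a region's highest fold among these regions in each list. No region was called: limma with Benjamini-Hochberg adjustment gave 0 regions higher in D2 and 0 higher in D6 at an adjusted p of 0.05 (0% of regions tested either way), with a smallest adjusted p of 0.111. At an unadjusted p under 0.05 there were 1190 regions, 585 higher in D2 and 605 higher in D6. Without D6 replicate 1, where the lone D6 list is assumed to vary like the D2 lists, 44 regions were called higher in D2. Both D2 values exceeded both D6 values in 3078 regions (23.6%) and the reverse in 2526 (19.4%). Ranked over the full lists instead, which differ in length, the same 13054 regions divided into 4178 (32.0%) and 1137 (8.71%), again with 0 calls by limma (smallest adjusted p 0.200, 1005 at an unadjusted p under 0.05). Percentiles correlated across these regions at a Spearman rho of 0.824 for the D2 pair, 0.788 for the D6 pair and 0.764 to 0.811 across stripes. These are descriptions over regions that share libraries.

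The largest differences fell in peaks that the deposited names mark as having several summits. All 10 regions that led the D2 side and all 10 that led the D6 side held such a peak in at least 1 list, with differences of 74.2 to 90.7 and -95.5 to -80.3 percentile points. The list gives 1 line for such a peak, and its summit lay at a median of 77.9% to 78.6% of the peak's length in the 4 lists, against 49.5% to 49.7% for other peaks. The line can therefore hold a late summit of the peak in 1 list and a stronger one in another. At 3R 7197476–7199429, for example, the fold was 1.61 and 1.90 in the D2 lists and 18.5 and 20.3 in the D6 lists, while the D1 and D3 lists divided within each domain. Their percentiles in the full list were 99.4 and 1.73 in D1 and 99.8 and 2.17 in D3. Differences at such regions are not read as differences between stripes.

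Regions whose peaks had a single summit in all 4 lists, 6509 of the 13054, were therefore examined separately, a choice made after these values were seen. Agreement rose, with a Spearman rho of 0.950 for the D2 pair, 0.900 for the D6 pair and 0.850 to 0.910 across stripes. Again limma called 0 regions in either direction (0%), with a smallest adjusted p of 0.0606 and 923 regions at an unadjusted p under 0.05. Both D2 values exceeded both D6 values in 1560 regions (24%) and the reverse in 1452 (22.3%). Ranking all 13054 regions by covered width, which does not depend on the summit, also gave 0 calls (smallest adjusted p 0.185 by limma, 1230 at an unadjusted p under 0.05). By width both D2 values exceeded both D6 values in 1985 regions (15.2%) and the reverse in 3343 (25.6%).

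**Figure D5:**
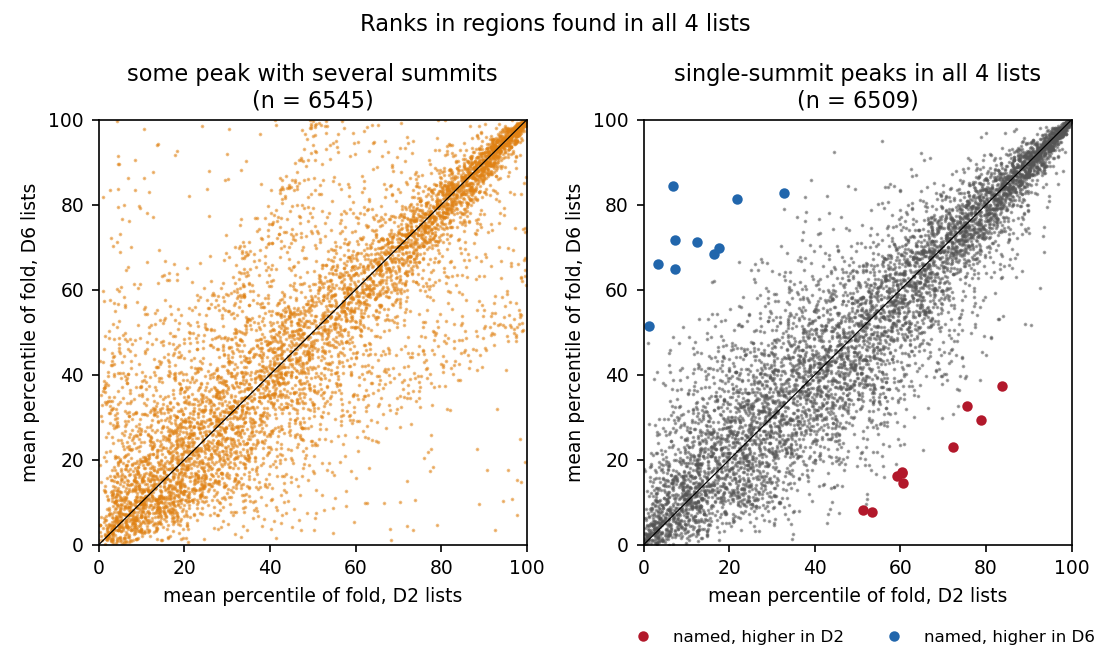
Mean percentile of fold in the D2 lists (horizontal axis) against that in the D6 lists (vertical axis), 1 point per region found in all 4 lists, for regions with a peak of several summits in some list (6545) and with single-summit peaks in all 4 (6509). Points far from the diagonal are mostly of the first kind; the named single-summit regions are marked, and none was called.

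The largest single-summit difference was at X 3287675–3288322, higher in D6. Its fold was 1.84 and 2.27 in the D2 lists and 4.98 and 8.20 in the D6 lists, without overlap, and the difference was -77.6 percentile points (SE 8.96, limma adjusted p = 0.0606). In the full lists of other domains it stood at the 86.3 and 84.3 percentile in D7, at 32.2 and 47.0 in D1 and at 40.3 and 9.04 in D3. 3L 22424434–22425054 had folds of 1.99 and 2.22 in D2 and 3.30 and 7.14 in D6, and the D4, D5 and D7 lists, at percentiles 56.4 to 79.5, all lay above the D1 and D3 lists at 5.51 to 28.4. At 3R 5778225–5778951, inside the 3R 5700001–5800000 bin, the folds were 1.65 and 2.06 in D2 and 3.32 and 5.23 in D6. 2L 4574459–4575168 had 2.82 and 2.53 against 4.62 and 7.27, and again the D4, D5 and D7 lists (77.0 to 81.8) lay above D1 and D3 (37.9 to 63.2). 3R 397504–397918 had 2.07 and 2.53 against 3.71 and 5.70.

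The other named regions higher in D6 had smaller differences, of -57.4 to -49.9 points. These were 2R 15758061–15758878, 3L 18843781–18844394, 3L 10314936–10315392, 3R 18703317–18703776 and 2L 12614610–12615270. 3R 18703317–18703776 stood apart among them, since the D7 lists ranked it at 69.4 and 82.3 while the D5 lists ranked it at 4.21 and 3.58. In all 10 regions the mean percentile of the D1 and D3 lists was below that of the D4, D5 and D7 lists. In 5, every D1 and D3 list that held the region lay below every D4, D5 and D7 list. The 10 were named for the size of their difference. Over the 4261 regions described below, D1 and D3 lay lower in 53.9% of all regions. Among those whose D6 values both exceeded the D2 values, the share was 65.4%.

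The named regions higher in D2 showed the reverse. 3L 5989399–5990052 had folds of 4.01 and 3.95 in the D2 lists and 1.91 and 1.78 in the D6 lists, a difference of 45.6 percentile points (SE 7.91, limma adjusted p = 0.140). Its percentile was 68.6 to 79.0 in the D1 and D3 lists and 10.7 to 21.5 in the D4, D5 and D7 lists, so the bands divided with no overlap. X 18659922–18660745 had folds of 5.78 and 5.25 against 2.36 and 2.24, with D1 and D3 at 70.1 to 82.3 and D7 at 21.5 and 22.9. 2L 600356–601050 had 7.44 and 7.54 against 3.46 and 2.13, and all D1 and D3 lists ranked it above 87, against 44.1 to 54.9 in D4, D5 and D7. At 3L 17527514–17527947 the D6 lists differed between themselves, at 3.19 and 1.69, against 6.13 and 6.94 in D2.

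The remaining 6 were 2R 10341336–10341752, 2R 21014905–21015289, 2R 6756322–6756829, 3L 21460699–21461210, 3R 20997025–20997849 and 2R 17044393–17045050, with differences of 42.8 to 46.1 points. Of the 10 regions higher in D2, all had a higher mean percentile in D1 and D3 than in D4, D5 and D7, and in 7 every D1 and D3 list lay above every other list that held the region. 2R 10341336–10341752 was not found in the D5 lists. These 10 too were named for the size of their difference. Over the 4261 regions described below, D1 and D3 lay higher in 46.1% of all regions. Among those whose D2 values both exceeded the D6 values, the share was 57.0%.

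The same tendency appeared across a set of 4261 single-summit regions that all 14 tagged lists held. Every D1 and D3 list ranked the region above every D4, D5 and D7 list in 5.00% of all these regions, in 12.4% (129) of the 1041 whose D2 values both exceeded the D6 values, and in 0.859% (8) of the 931 with the reverse order. Every D1 and D3 list ranked it below in 5.19% of all, in 2.40% (25) of the D2-higher and in 10.4% (97) of the D6-higher regions. These shares describe regions measured in the same libraries and carry no test. The set does not hold every such region. The named 3L 5989399–5990052, 3R 20997025–20997849 and 3L 18843781–18844394 were in all 14 lists but not in the set. Differences were small for most regions of the set. The median of D1 and D3 minus the others was 1.33 points in the D2-higher and -2.56 points in the D6-higher regions, against -0.46 over all.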

How the data were processed

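Each library was represented by 1 peak list on build dm3. Per the submitters' processing notes, Bowtie2 2.2.9, SAMtools 1.3.1 and MACS2 2.1.1.2 were used, and per the labels genomic DNA was the peak-calling reference. Other settings are not given in the sources used here. The score column the authors deposited is 10 times the -log10 q, and the fold enrichment at the summit comes with it. The file headers name rtracklayer 1.40.3.

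Peaks were merged at 1 bp overlap with Python 3.11.15, numpy 2.4.6 and pandas 2.3.3. Shares in other lists were compared by exact permutation over lists (scipy 1.17.1). Percentile ranks were fitted with limma 3.58.1 in R 4.3.3 (empirical Bayes with trend, two-sided, Benjamini-Hochberg over all regions tested). On simulated ranks for the 6509 single-summit regions, shifts of 20, 40 and 60 points were called in 26.9%, 97.0% and 100% of regions shifted. There were 10 false calls among 6309. In the data, the named single-summit regions differed by 42.8 to 77.6 points and were not called (limma adjusted p of 0.0606 to 0.258). The simulated rates therefore do not carry over to these lists, and the 0 calls do not exclude shifts of 40 points.

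Named were, for each direction, the 10 separated regions with the highest median percentile, the 10 common regions with the largest difference among those without overlap, and the separated regions in the 3 fullest bins of either direction. The regions, lists and tests were chosen with earlier results of these data known. The p-values measure the spread between lists, which came from different strains except for the D3 lists. The genomic DNA library was not analysed here. Replicate numbers did not pair the lists (correlation of deviations -0.0937).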

Additional observations from a re-analysis of the deposited data

Results flagged for a closer look

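At equal lengths, D1 replicate 1 held 72.3% of the D2-found regions, above the other D1 and D3 lists, which held 48.7% to 51.8%. Also at equal lengths, D5 replicate 1 held 47.7% of the D6-found regions, below the other lists of D4, D5 and D7, at 66.6% to 77.6%. Both lists are in the ATAC_ style, whose lists hold no peak named as having several summits. The part of that style in either value was not tested. Chance gives such a gap in about 1 of 20 groups.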

How the results depend on the processing

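Counts of separated regions followed list length. The D2-found count of 990 became 624 at equal lengths by width, 587 at equal lengths by fold, 558 with equal lengths on the D2 side alone, 1936 in bins of 500 bp, and 1498 to 3168 with a list left out. The D6-found count of 208 became 482, 402, 597 (single-summit peaks only), 464 (bins) and 248 to 1105. The fullest bin held 16 to 20 D2-found regions (12 with all lists) and 8 to 30 D6-found regions with a list left out, and 13 D6-found at 50% coverage. Overlap across stripes was 73.0% at equal lengths by fold, 70.9% at a -log10 q of at least 5 and 48.8% for single-summit peaks, against 74.6%. A 50% overlap was not run for this index, which does not use it. The anterior difference of D2-found regions, 1.11 points, turned to -0.28 (-log10 q of at least 5), -1.01 (single-summit), -0.44 (50% overlap) and -5.04 to 2.92 (a list left out). That of D6-found regions was -15.6 for single-summit peaks and -31.3 to -16.5 with a list left out. By limma, 44 regions were higher in D2 without D6 replicate 1, and normal scores called 8 each way, against 0. Leaving out the other lists called 0. The cause was not tested. With the replicate block, limma called 0 regions (smallest adjusted p 0.439, and 0.0780 for single-summit regions), and presence counts of 990 and 208 cannot change. The crossed pairing called 8 regions higher in D2 and 31 higher in D6 among single-summit regions. Single-summit regions, covered width, averaging by strain, the crossed pairing and equal lengths on 1 side were added after seeing the data. Depth is unknown, so a missing peak does not show closed chromatin.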

Other observations

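The X chromosome had the lowest share of D2-found regions of the 6 arms, 2.84% of its 3871 regions, against 4.01% on 2L, 5.55% on 2R, 5.32% on 3L, 5.09% on 3R and 5.32% on 4. At equal lengths X again had the lowest D2-found share, 1.56%, and the highest D6-found share, 3.07%, against at most 2.66% on the other arms. In the full lists the D6-found share of X, 1.01%, lay between the 0.253% of 4 and the 1.25% of 3R. These shares carry no test.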
